A study of Mus musculus with 12 samples.

Results

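Tetraspanins are small membrane proteins that cross the membrane repeatedly and gather integrins, immunoglobulin-family proteins, proteases and each other into patches of the cell surface and of endosomes. In macrophages they are known to act in adhesion, in the restraint of cell fusion, in antigen presentation and in the making of extracellular vesicles. The 8 tetraspanin genes described here were chosen by name, with earlier results of these data known: Cd9, Cd63, Cd81, Cd82, Cd37, Cd53, Cd151 and Tspan4. Of these, 7 were among the 14847 genes with a transcript cluster of their own (a gene-level feature annotated with 1 symbol). Cd63 had no such cluster and was read as the median of its 11 probesets (exon-level features), among 22184 genes that could be read in that way.

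RNA came from brain macrophages of mice 3 weeks old with the genotype Lrrc33+/+ (called WT) or labelled Lrrc33-/- (called KO-labelled), 3 samples a group. Lrrc33 is now named Nrros, and its protein holds latent TGF-beta1 at the surface of myeloid cells. Both groups were gated alike (CD45low CD11b+ CD39+ Ter119-) and extracted with Trizol, and Affymetrix exon arrays were used to compare the genotypes. The labels name no strain, sex, targeted exon or driver of the allele. They call the samples biological replicates but give no number of mice behind each. The p-values below therefore cover the spread between samples alone, except those of diffSplice, which is described further below. How far the spread between samples is a spread between mice is not known.

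Several checks went with the labels and others did not. The Nrros cluster read 9.94, 9.88 and 9.60 log2 in the WT samples and 9.86, 9.89 and 9.83 in the KO-labelled samples, a difference of 0.05 ± 0.09 (SE; limma adjusted p = 0.759), so it did not tell the genotypes apart, and whether its probes lie in the targeted stretch is not known. WT replicate 3 read 7.72 for the Y-linked Eif2s3y, against 3.06 to 3.15 in the other 5 samples. Arrays correlated at 0.9938 to 0.9956 within groups and 0.9592 to 0.9655 between them, across genes. All 10 microglia markers with a cluster were lower in the KO-labelled samples, where their summed unlogged level ran from 23139 to 23587 against 54551 to 55670 in WT, and 10 of 11 markers of border-associated macrophages were higher, with sums of 40943 to 41955 against 9327 to 10339. In bulk RNA, fewer cells of a type and less RNA per cell cannot be told apart, and the part of these shifts in each tetraspanin result was not tested.

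The start regions of 4 members are shown, since these members fell by widely different amounts and differ in which cells they are known for. Cd9 and Cd81 are made by many cell types, whereas Cd37 and Cd53 are largely confined to white blood cells. Each window runs from 250 bases before to 50 after a RefSeq start site on GRCm38.p6 and is written 5′ to 3′ along the gene's strand. Capitals mark matches, on either strand, to GAGGAA, a core bound by the myeloid and B-cell factor PU.1, and to GGGCGG, the GC box. These motifs share no letters where they match below. The windows are Cd9 at chr6:125494711-125495010 (minus strand), Cd81 at chr7:143052500-143052799 (plus strand), Cd37 at chr7:45238790-45239089 (minus strand) and Cd53 at chr3:106790100-106790399 (minus strand).
Cd9: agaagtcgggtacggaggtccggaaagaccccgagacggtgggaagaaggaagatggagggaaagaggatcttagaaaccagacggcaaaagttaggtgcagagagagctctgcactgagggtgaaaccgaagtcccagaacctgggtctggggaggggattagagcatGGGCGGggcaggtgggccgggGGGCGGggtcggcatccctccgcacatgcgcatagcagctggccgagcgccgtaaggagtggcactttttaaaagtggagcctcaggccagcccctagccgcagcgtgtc
Cd81: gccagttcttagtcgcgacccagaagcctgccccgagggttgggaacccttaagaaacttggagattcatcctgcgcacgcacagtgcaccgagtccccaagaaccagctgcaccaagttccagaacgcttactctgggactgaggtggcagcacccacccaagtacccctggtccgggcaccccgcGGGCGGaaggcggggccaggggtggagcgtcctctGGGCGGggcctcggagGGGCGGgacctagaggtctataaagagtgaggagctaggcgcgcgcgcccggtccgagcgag
Cd37: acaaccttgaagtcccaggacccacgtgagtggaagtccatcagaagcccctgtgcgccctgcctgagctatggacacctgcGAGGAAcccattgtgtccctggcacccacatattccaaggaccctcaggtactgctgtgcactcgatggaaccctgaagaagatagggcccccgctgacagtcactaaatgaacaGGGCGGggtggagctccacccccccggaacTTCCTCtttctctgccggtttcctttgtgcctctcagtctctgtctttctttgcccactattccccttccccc
Cd53: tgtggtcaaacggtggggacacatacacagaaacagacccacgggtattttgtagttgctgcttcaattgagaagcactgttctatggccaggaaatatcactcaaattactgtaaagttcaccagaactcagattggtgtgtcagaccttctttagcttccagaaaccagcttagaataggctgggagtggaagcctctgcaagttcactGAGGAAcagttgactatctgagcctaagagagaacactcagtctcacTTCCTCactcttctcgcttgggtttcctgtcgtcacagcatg
The Cd9 window held 2 GC boxes and the Cd81 window 3, and neither held GAGGAA. The Cd53 window held 2 matches to GAGGAA and no GC box. The Cd37 window, whose start site lies 501 bases inside the annotated start of the gene, held 2 matches to GAGGAA and 1 GC box. GC content was 61.3% with 18 CpG in the Cd9 window and 65.7% with 23 CpG in the Cd81 window, against 57.7% with 8 CpG for Cd37 and 46.3% with 4 CpG for Cd53. Over all 32851 promoter windows of that length, 28.3% held GAGGAA and 35.7% a GC box, and the median was 52.7% GC and 7 CpG. A match is a description of letters only.

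The 4 other members had windows that are not printed. At their first annotated starts, Cd82 held 2 GC boxes, Cd151 held 2 and Tspan4 held 3, and none of these 3 windows held GAGGAA. Cd82 had 4 windows in all, and the one 1099 bases inside the gene held 2 matches to GAGGAA. The Cd63 window in the table lies 13114 bases inside the gene, away from its annotated start.

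Of the 8 tetraspanins, 5 were lower in the KO-labelled samples (Cd9, Cd37, Cd81, Cd53 and Cd82), 1 was higher (Cd63), and 2 did not pass the threshold (Cd151 and Tspan4), at an adjusted p under 0.05 from limma with Benjamini-Hochberg adjustment. For background, 28.4% of all 16755 clusters passed by the same rule, 14.0% lower and 14.4% higher, and for genes read from probeset medians, as Cd63 was, 8.38% were called higher and 7.53% lower. All 7 members with a cluster read above the gene-level median in WT, and brighter clusters passed more often. After a filter on dim clusters, 2304 of 8783 were lower and 2375 higher. Among genes read from probesets and filtered alike, 2242 of 11685 were higher and 2061 lower. Among the 7 members with a cluster, 6 had groups that did not overlap, as did 42.3% of all clusters. Their median difference was -0.34, beside -0.02 over all clusters. Differences below are in log2 units, as KO-labelled minus WT.

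Cd9, which binds integrins and immunoglobulin-family partners at the surface and is known to restrain fusion of mouse macrophages, fell the most. It read 11.01, 11.04 and 10.87 log2 in the 3 WT samples and 8.73, 8.59 and 8.32 in the 3 KO-labelled samples. Every KO-labelled sample lay far below every WT sample, and the lowest of them was replicate 3. The group means were 10.97 ± 0.09 and 8.55 ± 0.21 (SD, n = 3 each), a difference of -2.43 ± 0.11 (SE; limma adjusted p = 8.09e-06), with a 95% interval from -2.69 to -2.17. On the unlogged scale this was 5.38-fold lower, or 18.6% of the WT level. Ordered by the size of the fall, Cd9 stood at place 66 of 16755 clusters, and 1.37% of clusters differed by 2 log2 units or more in either direction (5.16% by 1 or more).

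Cd37, a tetraspanin of leukocytes that is best known in B cells and dampens immune signalling, showed the next largest fall. Its cluster read 11.59, 11.62 and 11.54 log2 in WT and 10.14, 10.21 and 10.05 in the KO-labelled samples. The samples of each group lay within 0.17 log2 of each other, and the groups were separated by 1.33. The difference was -1.45 ± 0.06 (SE; limma adjusted p = 6.23e-06), which is 2.73-fold lower, or 36.7% of the WT level. Of 9 B-cell markers with a cluster, 1 was higher (Cd22) and none lower. The summed unlogged level of all 9 was 1383 to 1627 in WT and 1805 to 2391 in the KO-labelled samples. Without Cd22, left out after its values were seen, the sums overlapped (1245 to 1471 against 1284 to 1762). Those sums hold only markers that did not pass, so their overlap is largely built in. The part of B cells in the fall of Cd37 was not tested.

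Cd81, the widely made relative of Cd9 that also belongs to the B-cell co-receptor, moved less. It read 12.97, 13.04 and 12.97 log2 in WT and 12.37, 12.53 and 12.39 in the KO-labelled samples. The groups did not overlap, and the gap between them (0.44) was wider than the spread within either. The difference was -0.57 ± 0.06 (SE; limma adjusted p = 0.000544), or 67.5% of the WT level. The intervals of the 2 relatives do not meet: the Cd81 difference ran from -0.71 to -0.42, far from that of Cd9, although the ratio of their changes was not itself tested.

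Cd53 and Cd82 showed the smallest falls past the threshold. Cd53, made across white blood cells, read 12.70, 12.68 and 12.76 log2 in WT and 12.38, 12.36 and 12.36 in the KO-labelled samples, a difference of -0.34 ± 0.05 (SE; limma adjusted p = 0.00211) or 79.0% of the WT level. Cd82, known as a suppressor of tumour spread, read 10.87, 10.84 and 10.86 log2 in WT and 10.55, 10.64 and 10.50 in the KO-labelled samples. Its difference was -0.29 ± 0.06 (SE; limma adjusted p = 0.00710), or 81.7% of the WT level. For both genes the groups were apart. Of the 16755 clusters, 10.6% were lower than Cd53 and 12.6% lower than Cd82, against 0.388% lower than Cd9.

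Cd63, the tetraspanin of late endosomes, lysosomes and secreted vesicles, was the member that rose. Its probeset median read 10.05, 9.94 and 9.96 log2 in WT and 10.86, 10.78 and 10.84 in the KO-labelled samples. All 3 KO-labelled samples lay above all 3 WT samples, by at least 0.74. The difference was 0.85 ± 0.09 (SE; limma adjusted p = 0.000569 over all genes read from probesets), with a 95% interval from 0.64 to 1.05, or 1.80-fold higher. Read from probesets in the same way, the 5 members that were lower gave differences of -2.53 for Cd9, -1.44 for Cd37, -0.58 for Cd81, -0.43 for Cd53 and -0.41 for Cd82, each in the same direction as at the gene level.

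Cd151 and Tspan4 did not pass the threshold. Cd151, a partner of laminin-binding integrins, read 8.40, 8.42 and 8.47 log2 in WT and 8.49, 8.52 and 8.50 in the KO-labelled samples. Its groups were 0.01 apart, and the difference of 0.07 ± 0.05 (SE; limma adjusted p = 0.370) had a 95% interval from -0.05 to 0.19. Tspan4, which is known for its part in migrasomes, the vesicles left behind by migrating cells, read 8.09, 8.11 and 8.21 log2 in WT and 8.32, 8.39 and 8.15 in the KO-labelled samples. KO-labelled replicate 3 lay among the WT samples, and the difference of 0.15 ± 0.08 (SE; limma adjusted p = 0.213) had an interval from -0.03 to 0.33. Read from probesets, the Tspan4 difference turned to -0.07 (adjusted p = 0.68), so no direction can be given for it. For Cd151 a change as large as those of Cd9, Cd37, Cd63 or Cd81 lies outside the interval.

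**Figure D1:**
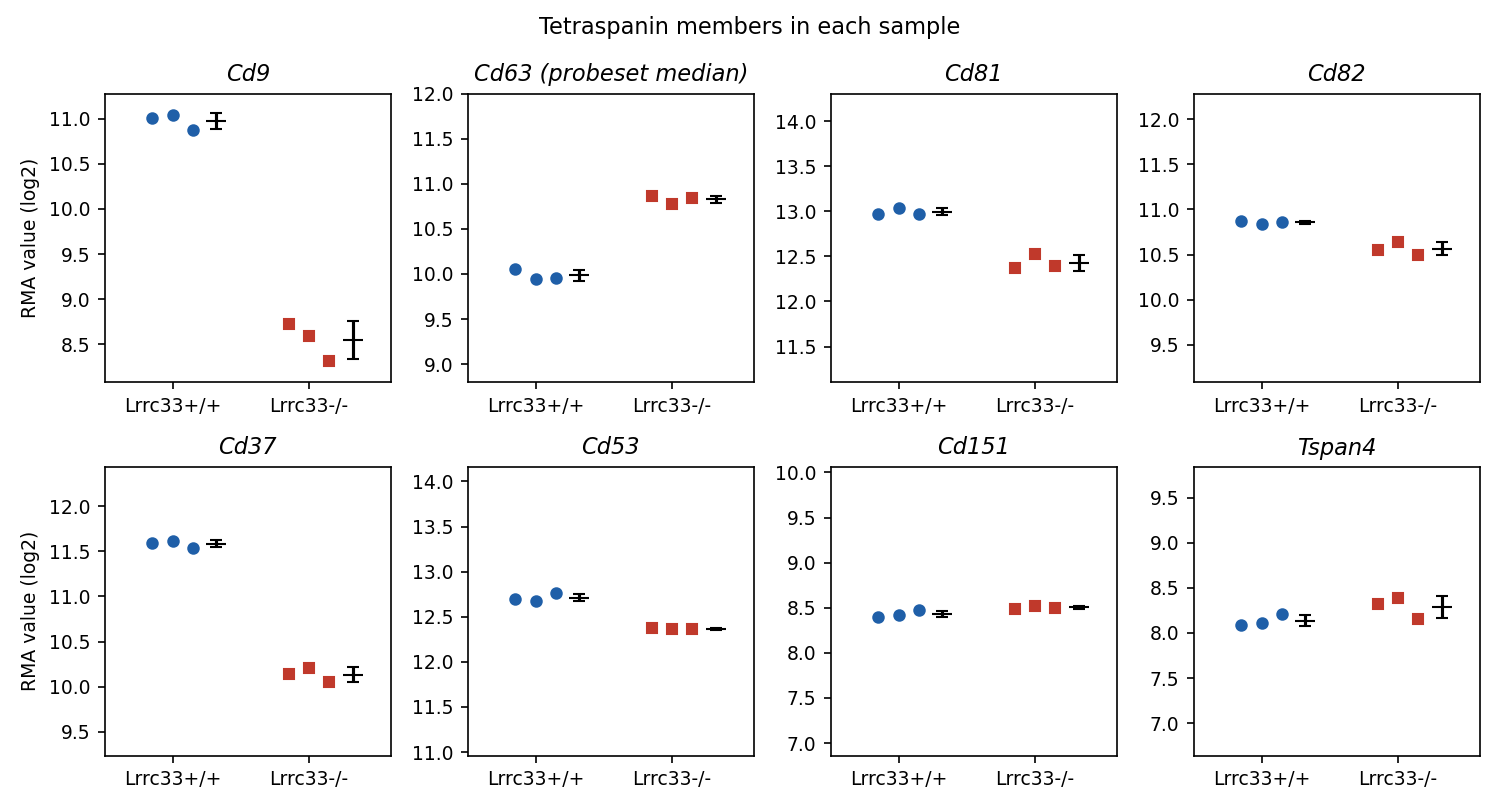
Log2 level (vertical axis, RMA log2) of each of the 8 tetraspanins in the 3 WT (Lrrc33+/+) and 3 KO-labelled (Lrrc33-/-) samples, 1 point a sample, with the group mean as a short line to the right and the SD as its error bar; all panels span the same width of log2 units. Cd9 and Cd37 show the widest gaps, Cd63 alone lies higher in every KO-labelled sample by 0.74 or more, and the Tspan4 groups overlap.

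Single probesets show how evenly each transcript moved; their positions in the genes were not given in the sources used here. Of the 14 Cd9 probesets, 13 were lower by limma at an adjusted p under 0.05 and 1 did not pass, against 4.75% of all 1236087 probesets passing and 2.16% called lower. That background includes 907200 probesets without a gene symbol, and the share among probesets with 1 symbol is not given here. Of the 19 Cd37 probesets, 16 were lower and 3 did not pass. For Cd63, 8 of 11 were higher, against 2.59% of all probesets called higher. Cd81 had 3 of 12 lower. No probeset of Cd82 (15), Cd53 (10), Cd151 (15) or Tspan4 (12) passed on its own, although all 15 of Cd82, all 12 of Cd81 and 9 of 10 of Cd53 had a difference below 0.

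Within Cd9 the probesets ranged from -3.64 to 0.10, with a median of -2.17. The test of unequal change among probesets (limma's diffSplice, on probesets at or above the exon-level median of 5.82) gave an adjusted p of 5.9e-17 for Cd9. It pools the residual spread over a gene's probesets and treats probesets of the same array as independent. Its p-values, also those of single probesets against the rest of their gene, can therefore be too small for 3 samples a group. Probeset 5321163 read 6.84 ± 0.18 (SD, n = 3) in WT and 6.94 ± 0.29 in the KO-labelled samples, level between the groups where the rest of the gene fell, and differed from that rest by 2.48 (adjusted p = 2.3e-15). At the other end, probeset 5200889 read 8.56 ± 0.38 in WT and 4.92 ± 0.25 in the KO-labelled samples, the latter below the exon-level median.

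Cd37 probesets ranged from -1.75 to -0.17 with a median of -1.40 (diffSplice adjusted p = 1.4e-14). Probesets 5258164 and 4987520 moved least, at -0.17 and -0.39, and their groups overlapped, while the other 17 had groups that did not. Cd63 probesets ranged from -0.08 to 1.04 with a median of 0.89 (diffSplice adjusted p = 0.00066). Probeset 4924003 of Cd63 read 7.08 ± 0.21 in WT and 7.04 ± 0.01 in the KO-labelled samples (SD, n = 3 each), apart from the rest of the gene by -0.95. The one near -0.08, probeset 4378872, lay below the exon-level median in both groups.

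Cd81 probesets ranged from -1.0 to -0.44 and passed the diffSplice test at an adjusted p of 0.024, but this was lost when any one of WT replicates 1, 2 and 3 or KO-labelled replicates 1 and 3 was left out (adjusted p from 0.051 to 0.33). Cd82 (0.15), Cd53 (0.67), Tspan4 (0.48) and Cd151 (0.94) did not pass, those values being adjusted p from diffSplice. In all, 4 of the 8 members passed, and 31.6% of the 16692 genes tested did.

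**Figure D2:**
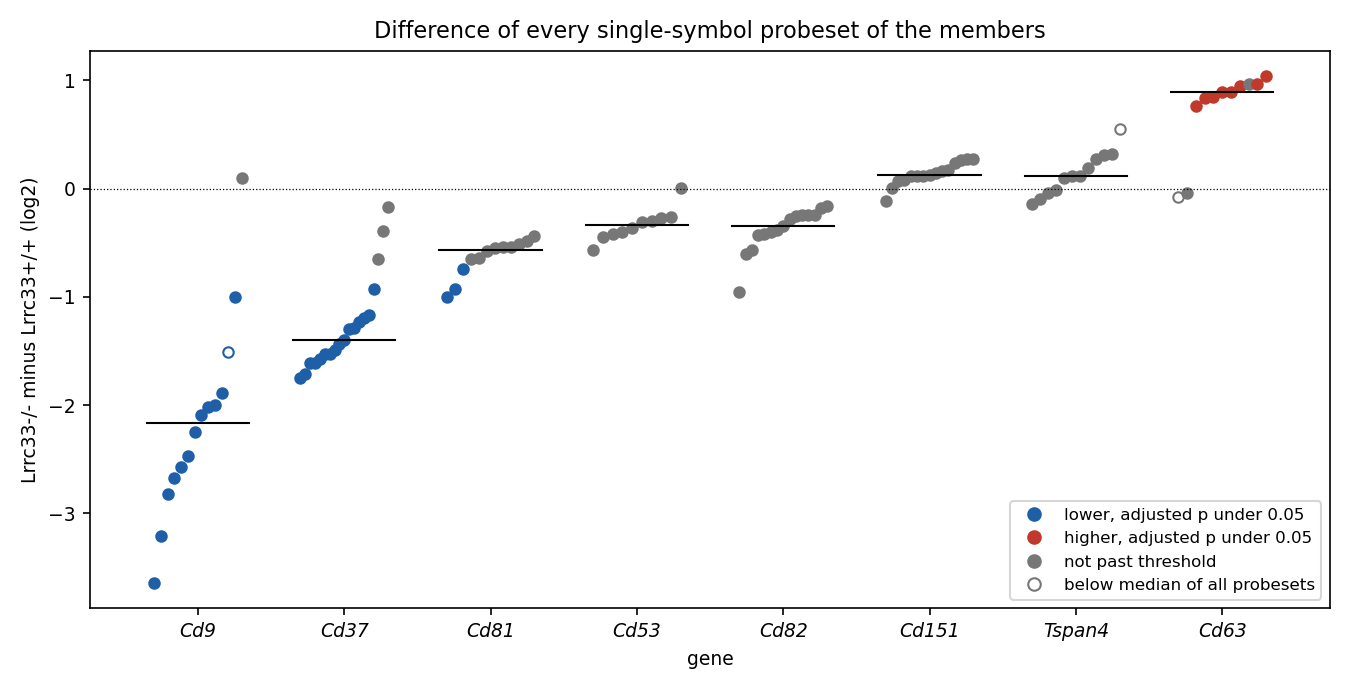
Difference between KO-labelled and WT means (log2, vertical axis) of every probeset of the 8 tetraspanins, 1 point a probeset, with the colour marking whether it passed the limma threshold, the line its gene's median and open points probesets below the exon-level median. Cd9 spreads from -3.64 to 0.10 with 13 of 14 lower, Cd63 lies mostly above 0 with 8 of 11 higher, and Cd151 and Tspan4 stay close to 0.

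In the rest of the family, a pair of genes had differences larger in size than that of Cd9 at the gene level. Of 23 other tetraspanins, 21 had a cluster: 7 were lower, 2 higher and 12 did not pass by limma, beside 14.0% and 14.4% of all clusters, and their median difference was -0.09. Tspan6 was read from probesets alone (0.04, adjusted p = 0.90), and Tspan7 was not analysed here. Upk1b, known as a uroplakin of the bladder lining, read 9.37, 9.22 and 8.36 log2 in WT and 5.43, 6.02 and 5.59 in the KO-labelled samples. Tspan18, known from endothelial cells, where it acts on calcium entry, read 8.78, 8.80 and 8.04 in WT and 5.60, 5.42 and 5.55 in the KO-labelled samples. In both genes the groups were far apart and WT replicate 3 was the lowest WT sample. The differences were -3.30 ± 0.28 for Upk1b (SE; limma adjusted p = 0.000148), 9.85-fold lower, and -3.02 ± 0.20 for Tspan18 (adjusted p = 4.41e-05), 8.11-fold lower. Without WT replicate 3 they were -3.61 and -3.27. Read from probesets they were -3.03 and -2.31, beside -2.53 for Cd9, so Tspan18 then fell less than Cd9. All KO-labelled values of both genes lay below the gene-level median of 6.72, where RMA compresses differences.

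The TspanC8 group, which escorts the protease ADAM10 to the surface, holds 6 genes: 3 were lower (Tspan5, Tspan14 and Tspan33), 1 was higher (Tspan17) and 2 did not pass. Tspan5 read 7.54, 7.63 and 7.5 log2 in WT and 6.32, 6.50 and 6.43 in the KO-labelled samples, a difference of -1.14 ± 0.07 (SE; limma adjusted p = 2.53e-05). Tspan14 read 10.55, 10.58 and 10.42 in WT and 9.66, 9.65 and 9.67 in the KO-labelled samples, a difference of -0.86 ± 0.06 (adjusted p = 5.73e-05). Tspan17 went the other way, with 6.01, 6.05 and 6.13 in WT and 6.68, 6.91 and 6.87 in the KO-labelled samples, a difference of 0.75 ± 0.07 (adjusted p = 0.000325). Tspan33, named after its values were seen, was at the edge of the threshold (-0.23, adjusted p = 0.0499), and it was lost when any one of WT replicates 1 and 2 or KO-labelled replicates 1, 2 and 3 was left out (adjusted p from 0.083 to 0.14). Tspan10 had 0.03 ± 0.06 (adjusted p = 0.817) and Tspan15 had -0.03 ± 0.11 (adjusted p = 0.887), both named after their values were seen.

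Among the other tetraspanins past the threshold, Tspan13 was higher by 0.49 ± 0.08 (SE; limma adjusted p = 0.00402). Tspan9, known from platelets, was lower by limma with a difference of -0.53 ± 0.07 (adjusted p = 0.00138) at the gene level and -1.36 when read from probesets. Tspan32, a tetraspanin of blood cells, differed by -0.42 ± 0.10 (adjusted p = 0.022), and that call was lost without WT replicate 1 (0.055), KO-labelled replicate 1 (0.075) or KO-labelled replicate 2 (0.069), these being adjusted p. Tspan12, known from Norrin signalling in retinal vessels, had -0.24 (adjusted p = 0.16), and Tspan8 had 0.21 (adjusted p = 0.051), which passed without KO-labelled replicate 3 (adjusted p = 0.018). Tspan3 (-0.02, interval -0.14 to 0.10) and Tspan31 (0.06, interval -0.05 to 0.18) lay near 0 with narrow intervals.

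Some of these genes are neighbours. In the RefSeq table, Cd151 and Tspan4 lie on chromosome 7 with 1 gene between them, and neither passed. Cd81 and Tspan32, also on chromosome 7 with 1 gene between them, had -0.57 and -0.42. Cd82 and Tspan18, on chromosome 2 with 5 genes between them, had -0.29 and -3.02.

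**Figure D3:**
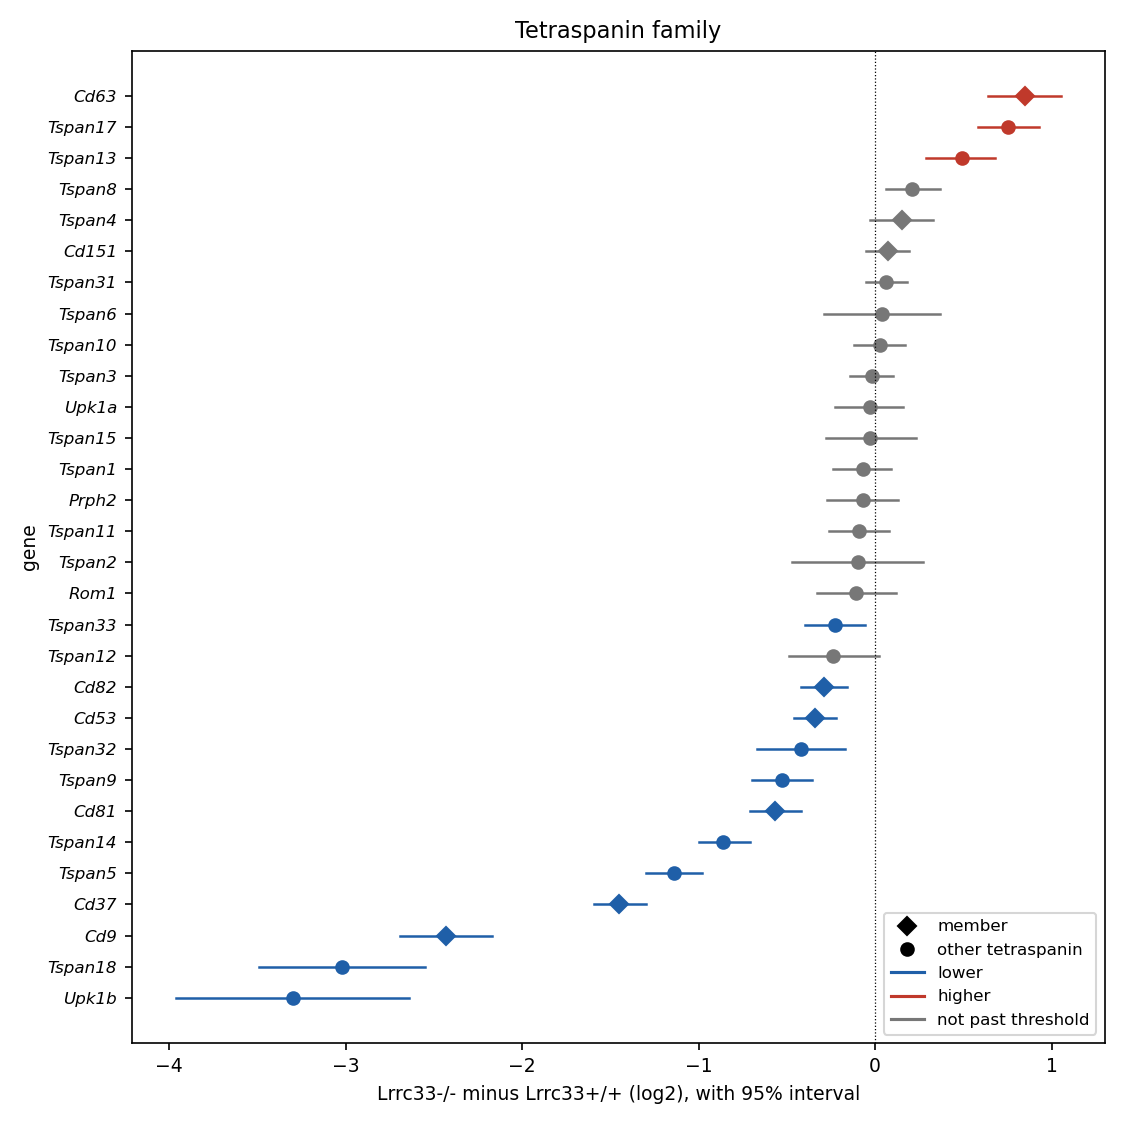
Difference between KO-labelled and WT means (log2, horizontal axis) for the 30 tetraspanin genes measured, ordered by size, with 95% intervals, the 8 tetraspanins described above as diamonds, the others as circles, and colour marking the limma call. Upk1b (-3.30), Tspan18 (-3.02) and Cd9 (-2.43) lie farthest below 0, and Cd63 (0.85) and Tspan17 (0.75) farthest above it.

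Partners of tetraspanins were read from lists of integrins, membrane proteins, the ADAM10 group, signalling and antigen-presentation genes, and vesicle and endosome genes. Leaving out the tetraspanins among them, 56 of 65 listed genes had a cluster: 16 were higher, 13 lower and 27 did not pass by limma, with a median difference of 0.08. The background was the same 14.4% and 14.0% of all clusters, or 2375 higher and 2304 lower of 8783 after the filter on dim clusters.

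Integrins include chains that Cd9, Cd81 and Cd151 bind sideways in the membrane. Of 11 with a cluster, 6 were lower, 1 higher and 4 did not pass, with a median of -0.75. Itgb3, the beta chain of vitronectin receptors, read 8.78, 8.75 and 8.70 log2 in WT and 6.49, 6.50 and 6.55 in the KO-labelled samples, a difference of -2.23 ± 0.05 (SE; limma adjusted p = 5.37e-07). Its alpha partner Itgav had -1.01 ± 0.07 (adjusted p = 4.34e-05). Itgam, which encodes the CD11b of the sort, had -1.81 ± 0.07 (adjusted p = 5.54e-06). Itgal, the alpha chain of LFA-1, went up by 1.51 ± 0.06 (adjusted p = 4.13e-06). Itgb1, the beta chain shared by many integrins, had 0.04 ± 0.06 (adjusted p = 0.711). Of the alpha chains, Itga6 was lower by limma (-0.80 ± 0.07, adjusted p = 0.000146), while Itga3 (-0.05), Itga5 (0.11) and Itga7 (0.09) did not pass. Itga4, read from probesets, was higher and is described further below.

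The immunoglobulin-family partners that bind Cd9 and Cd81 directly went opposite ways. Ptgfrn, also called CD9P-1, read 6.83, 6.87 and 6.54 log2 in WT and 5.25, 5.48 and 5.32 in the KO-labelled samples, a difference of -1.40 ± 0.11 (SE; limma adjusted p = 8.66e-05). Igsf8, also called EWI-2, read 7.53, 7.57 and 7.55 in WT and 8.04, 8.19 and 7.95 in the KO-labelled samples, a difference of 0.51 ± 0.07 (adjusted p = 0.00167). Both pairs of groups were apart. Of the 10 membrane partners with a cluster, 4 were higher, 2 lower and 4 did not pass, with a median of 0.02. The leukocyte ligands Vcam1 and Icam1, which sit in tetraspanin patches of endothelial cells, also split.

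Vcam1 read 7.80, 7.90 and 7.87 log2 in WT and 11.93, 11.95 and 12.33 in the KO-labelled samples, higher by 4.21 ± 0.11 (SE; limma adjusted p = 9.47e-07). Icam1 had -1.51 ± 0.14 (adjusted p = 0.000232). Ifitm3, an antiviral membrane protein, was higher by 1.98 ± 0.28 (adjusted p = 0.00179), with KO-labelled replicate 3 at 11.19 above the other two at 10.24 and 10.15. Of 11 endothelial and mural markers with a cluster, 2 were lower (Pecam1 and Kdr) and none higher. The summed unlogged level of all 11 was 832 to 1163 in WT and 661 to 717 in the KO-labelled samples. Without those 2, the sums were 587 to 724 and 527 to 549, still apart. The part of other cells in the rise of Vcam1 was not tested.

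Adam10, the protease that the TspanC8 tetraspanins carry, read 11.05, 10.98 and 10.91 log2 in WT and 10, 9.95 and 10 in the KO-labelled samples, a difference of -0.99 ± 0.06 (SE; limma adjusted p = 2.28e-05), with the groups apart. In its list, which holds the TspanC8 genes described above, 4 of 9 genes were lower, 3 higher and 2 did not pass. Of 14 signalling and antigen-presentation genes, 4 were higher, 2 lower and 8 did not pass, with a median of 0.17. Clec7a, the beta-glucan receptor dectin-1 that CD37 is known to bind, was higher by 1.30 ± 0.25 (limma adjusted p = 0.00752), where Cd37 itself was lower. Prkca, a protein kinase C that tetraspanins bring to integrins, had -1.02 ± 0.05 (adjusted p = 1.70e-05). Cd74, the invariant chain of class II presentation, was higher by 0.95 ± 0.13 (adjusted p = 0.00131). The class II genes of the list did not pass by limma. H2-Aa had 0.45 ± 0.14 (adjusted p = 0.0534), and -0.33 when read from probesets. H2-Ab1 had 0.18 ± 0.16 (adjusted p = 0.483), and H2-Eb1, read from probesets, 0.27 ± 0.18 (adjusted p = 0.397). Prkcb, at 0.32 ± 0.09 (adjusted p = 0.030), was lost when any one of WT replicates 2 and 3 or KO-labelled replicates 1 and 3 was left out (adjusted p from 0.070 to 0.091).

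Of 18 vesicle and endosome genes, beside which the rise of Cd63 can be set, 5 were higher, 2 lower and 11 did not pass, with a median of 0.12. Anxa5, which binds exposed phosphatidylserine, read 8.65, 8.75 and 8.74 log2 in WT and 11.20, 11.13 and 11.20 in the KO-labelled samples, higher by 2.46 ± 0.06 (SE; limma adjusted p = 5.30e-07). Rab27a, a GTPase of exosome release, read 8.57, 8.38 and 8.35 in WT and 6.55, 6.46 and 6.40 in the KO-labelled samples, a difference of -1.97 ± 0.08 (adjusted p = 4.65e-06). Both pairs of groups were far apart, in opposite directions. The heparan sulphate carrier Sdc4 was higher by 1.26 ± 0.09 and the membrane scaffold gene Flot2 by 1.24 ± 0.09 (limma adjusted p = 5.60e-05 and 5.75e-05).

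**Figure D4:**
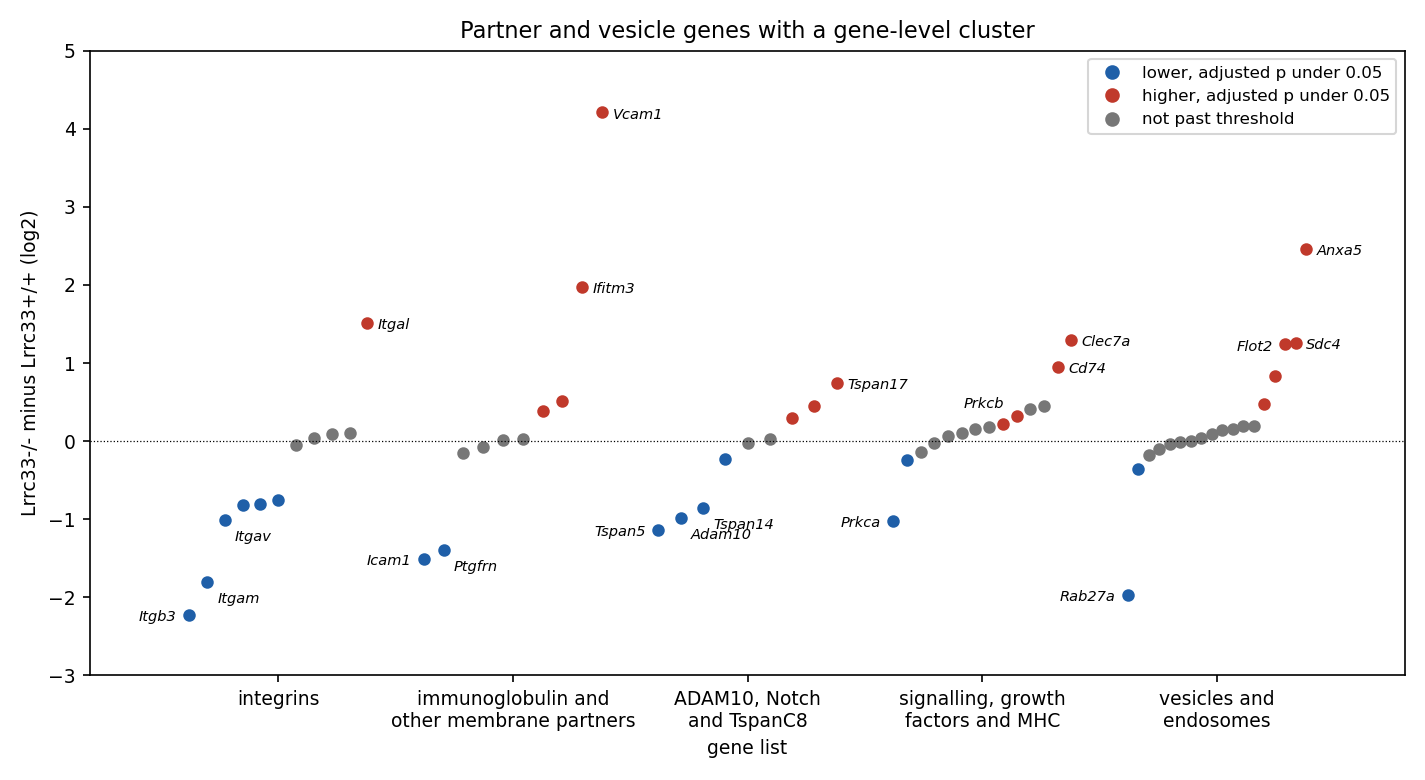
Difference between KO-labelled and WT means (log2, vertical axis) for partner and vesicle genes with a cluster, in 5 lists along the horizontal axis, 1 point a gene, coloured by the limma call. In the integrin list 6 of 11 genes are lower and Itgal (1.51) alone is higher, while Vcam1 (4.21) and Anxa5 (2.46) lead the genes that rose.

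Markers of other cell types that carry tetraspanins were set beside these results, and none of them read 0 on this scale. Platelets are rich in Cd9, and of 7 platelet markers with a cluster 1 was lower, 1 higher and 5 did not pass. Their summed unlogged level was 1216 to 1332 in WT and 549 to 689 in the KO-labelled samples, a gap carried by Gp9, which had -3.64, while Ppbp had 1.13. The 5 that did not pass summed to 320 to 333 and 293 to 323. Of 11 neutrophil markers 1 was lower, Csf3r, with -1.20 and no overlap between the groups. The sum over all 11 was 4038 to 6765 in WT and 1765 to 3614 in the KO-labelled samples, and the other 10 had overlapping sums of 1739 to 4468 and 832 to 2676. Of 10 astrocyte markers 1 was lower, Slc1a3, with -1.5, and the median difference of the list was -0.25. The sum over all 10 was 1869 to 2544 in WT and 1396 to 1547 in the KO-labelled samples. The other 9 had sums of 1265 to 1702 and 1153 to 1271, which overlapped only narrowly. Of 12 oligodendrocyte markers 1 was higher, with sums of 1360 to 1465 and 1370 to 1587. Of 8 monocyte markers 4 were lower (Ccr2, Plac8, Hp and Vcan), with sums of 527 to 642 against 354 to 475, and 7 of the 8 had both group means below the gene-level median. T and NK cell markers had 1 of 9 lower (Il7r), with sums of 666 to 978 in WT and 397 to 472 in the KO-labelled samples. Without Il7r the sums were 344 to 364 and 345 to 390. Erythroid markers had 1 of 6 lower (Ermap), with sums of 498 to 513 and 427 to 471, or 334 to 378 and 321 to 367 without Ermap. Neuron markers had 0 of 11 past the threshold in either direction. These splits of the lists were made after the values were seen. Sums over the remaining markers hold only markers that did not pass, so their overlap is largely built in. They do not show whether a cell type changed. Summed over all their markers, the monocyte, endothelial, T and NK, erythroid, astrocyte, neutrophil and platelet lists were lower in the KO-labelled samples. The falls of Cd9, Cd37, Cd53, Cd81, Cd82, Upk1b and Tspan18 were not tested against those lists. Nor were these falls tested against the single markers Gp9, Csf3r, Slc1a3, Il7r and Ermap.

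The genes whose pattern over the 6 arrays lay closest to each member were found by the root mean square distance between mean-centred log2 values. For Cd9 they were Arhgap5 (0.0742) and Myo6 (0.0945), and for Cd37 they were Magi1 (0.0195) and Sting1 (0.0259). Cd81 lay closest to Zbed3 (0.0265) and Hmgcs1 (0.0362), Cd53 to Hspa4 (0.0112) and Trim36 (0.0134), and Cd82 to Mllt1 (0.0206) and Dnajb5 (0.0242). Cd63, among genes read from probesets, lay closest to Als2cl (0.0202) and Sav1 (0.0308). For Tspan4 (Cacnb1 at 0.0194, Cfap161 at 0.0231) and Cd151 (Foxc1 at 0.00713, Aff3 at 0.0146), whose own differences did not pass, closeness says that these genes moved little too. No gene lay closer to Cd9 than 0.0742, a wider distance than for any other member. The distance is not scaled, so it grows with the size of the change, and Cd9 changed the most of the members.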

How the data were processed

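Total RNA of 6 sorted samples (3 WT, 3 KO-labelled) was measured on 1-channel Affymetrix exon arrays. The deposited values are log2 intensities that the authors summarised with RMA, per the submitters' processing notes, which also name oligo and limma for the exon level, with no role or version. The annotation behind the authors' RMA summary and the genome build are not stated in the sources used. The gene level held 16755 clusters and the exon level 1236087 probesets; the latter summarises the same hybridisations again and is no independent evidence, and 12 columns were used in all. Probes were named from the platform annotation, updated through a RefSeq table of GRCm38.p6: 14996 clusters had 1 symbol, 1019 several and 740 none, and at the exon level 321091, 7796 and 907200. Features with several symbols named no gene.

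Differences were tested with limma 3.58.1 in R 4.3.3 (lmFit and eBayes, two-sided, no covariate) over all features, p-values were adjusted by Benjamini-Hochberg, and 0.05 was the threshold. The gene-level fit covered all clusters. Cd63 and genes without a cluster were read as the median of their probesets and fitted over all 22184 genes read so. diffSplice used genes with at least 3 probesets at or above the exon-level median. Scripts were tested on simulated data.

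The members, gene lists and marker lists were chosen with earlier results of these data known. Named genes were the members, Nrros and the sort markers, up to 8 other tetraspanins past the threshold and the next 2, up to 4 past it by size in each partner list, and the 2 nearest genes to each member. Other genes, among them Igsf8, Itgb1, Itga6, Tspan3, Tspan31 and the partners read from probesets, were named outside this rule, with their values known. Precision is limited by the number of arrays.

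Alternatives were leaving out each sample, a block for the replicate number, a second quantile normalization, a filter on dim clusters, array weights, eBayes with trend and robust, values from probesets and, for diffSplice, all probesets. Replicate numbers did not pair the samples: deviations of same-numbered samples correlated at -0.0293, -0.00706 and 0.0393, across genes.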

Additional observations from a re-analysis of the deposited data

How the results depend on the processing

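Each of the 8 tetraspanins kept its direction and its side of the threshold under every alternative run, except Tspan4, which read -0.072 from probesets. Leaving out 1 sample at a time and the other alternatives gave, in all, -2.533 to -2.315 for Cd9, -1.488 to -1.404 for Cd37, -0.617 to -0.484 for Cd81, -0.43 to -0.241 for Cd53, -0.411 to -0.245 for Cd82 and 0.825 to 0.891 for Cd63. The count of members stayed at 5 lower and 1 higher. Other tetraspanins past the threshold numbered 5 to 7 lower and 2 to 3 higher, partners 11 to 14 lower and 15 to 20 higher, and all clusters 3786 to 5046. Read from probesets, 3530 of 22184 genes passed. The Nrros difference ran from -0.053 (without WT replicate 3) to 0.118 (without WT replicate 1); the cause was not tested. With the replicate number as a block, which shares only a number and is not a pairing in the design, 4240 clusters passed in place of 4758, members stayed at 5 and 1, and diffSplice gave an adjusted p of 0.069 for Cd81, no longer passing, and 0.04 for Cd82, now passing. Samples did not all correlate best with their own number. The sort marker Entpd1 (-0.36, limma adjusted p = 0.00789) no longer passed after a second quantile normalization (-0.238) or when read from probesets (-0.253), the Tspan32, Tspan33 and Prkcb calls ended when read from probesets (limma adjusted p = 0.091, 0.29 and 0.054), and Tspan32 also under the block (0.051). Tspan8 passed after a second quantile normalization (0.241), with array weights (0.223) and from probesets (0.568). With 3 samples a group and RMA values, falls of dim genes are compressed.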

Other observations

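Some tetraspanin partners had no cluster and were read from their probesets, where 8.38% of genes were called higher and 7.53% lower by limma. Itga4, the integrin chain that binds Vcam1, read 5.29, 5.85 and 5.33 log2 in WT and 7.64, 7.34 and 7.86 in the KO-labelled samples, higher by 2.13 ± 0.19 (SE; limma adjusted p = 0.00025). Ifitm2, a relative of Ifitm3, read 5.67, 5.77 and 5.49 in WT and 9.11, 9.02 and 9.11 in the KO-labelled samples, higher by 3.44 ± 0.11 (adjusted p = 2.02e-06). In both genes every KO-labelled sample lay above every WT sample. Ifitm1 was higher by 0.97 ± 0.09 (adjusted p = 0.000258). Cd101, an immunoglobulin-family protein related to Ptgfrn, had -0.79 ± 0.11 (adjusted p = 0.00265). Near copies in the Ifitm family can share probes, so its values are uncertain.

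Of the genes used for sorting, Ptprc, which encodes CD45, was higher by 0.46 ± 0.07 (SE; limma adjusted p = 0.00308) in the KO-labelled samples.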
